A study of Rattus norvegicus with 12 samples.

Results

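Expression of 7 rat genes for mitophagy receptors and adaptors was examined: Bnip3, Bnip3l, Fundc1, Pink1, Sqstm1, Optn and Map1lc3b. They were taken by gene name from the array files, where they make up 7 of 36174 gene names and 19 of 45598 distinct probes. The cells were N27, an immortalised rat line labelled dopaminergic neuron, and total RNA was hybridised to 1-colour Agilent arrays of 60-base probes. Of 12 cultures, 7 had Vdac1 removed by CRISPR (KO 1 to KO 7) and 5 were wild type (WT 3 and WT 5 to WT 8). Both groups are the same line, with no other treatment in the labels. The sources used here do not say whether the knockout cultures descend from 1 clone or whether any culture was grown apart from the others, so p-values measure the spread between these 12 samples, which may be technical.

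Mitophagy is the removal of damaged or surplus mitochondria by autophagy. Receptors in the outer mitochondrial membrane (BNIP3, its paralog BNIP3L, also called NIX, and FUNDC1) bind LC3 on the growing autophagosome directly. In the other route the kinase PINK1 gathers on depolarised mitochondria and activates the ubiquitin ligase Parkin, whose ubiquitin chains are read by the adaptors p62 (Sqstm1) and optineurin (Optn), and VDAC1 is one of the outer membrane proteins that Parkin marks. PINK1 protein is held low by rapid degradation and many steps run through protein modification, which an RNA array does not measure.

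Bnip3 was the only one of the 6 members tested that limma called between knockout and wild type, at adjusted p under 0.05. It was higher in the knockout by more than 2-fold on both of its probes. On both probes every knockout array lay above every wild-type array. By their brightest probes, 1 of the 6 member genes tested was higher in the knockout, 0 were lower and 5 did not pass (limma, adjusted p under 0.05; 2 at unadjusted p under 0.05). Of all 17912 probes tested, 1.13% were called, 0.687% higher and 0.441% lower, and 15.8% had an unadjusted p under 0.05. With 1 probe per gene 0.697% were called higher. The members were chosen with earlier results of these data known, so the share of members called is a description and not support. The members' median log2 difference, knockout minus wild type, was 0.13, and that of all probes tested was 0.035. Fundc1 was at background and was not tested. In bulk RNA, a change in the number of cells that express a gene and a change in RNA per cell cannot be told apart.

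Levels are given throughout as log2 of the processed signal minus the 75th percentile of the same array, so that 0 marks that percentile. A probe's level was compared between arrays, and levels of different probes say nothing of which transcript is more abundant. Probes are named by the base of the transcript at which they start. Pearson correlations between arrays ran from 0.935 to 0.992, and the first principal component (36.7% of variance) separated the 5 arrays whose sample numbers are 1 to 4 (KO 1 to KO 4 and WT 3, 34.9 to 48.3) from the 7 numbered 5 to 8 (-49.7 to -16.3). The labels give these numbers with no meaning. The arrays lay on 3 slides, each with both genotypes, but slide 2 held 3 knockout arrays with numbers 1 to 4 and WT 5 as its wild type. Over all probes 123 were called higher and 79 lower, 60.9% higher. That share was 50% under quantile normalization and in the deposited values, 49.3% with the percentile taken over probes detected on all arrays and 42.6% with the median in its place. Of 10 dopaminergic markers, Th and Aldh1a1 were well above background on all 12 arrays and 4 (Ddc, Slc6a3, Foxa2 and En1) on none, and of 7 general neuronal markers 0 were on all arrays and 5 (Map2, Nefl, Stmn2, Snap25 and Syp) on none. Of 5 microglial markers, Cx3cr1 and Cd68 were well above background on all 12 arrays and 2 (Itgam and Ptprc) on none. Of 5 fibroblast markers, Col1a1, Pdgfrb and Thy1 were on all 12 arrays and 1 (Dcn) on none. Of 4 astrocyte and 3 oligodendrocyte markers 0 were on all arrays, and 2 and 1 were on none. The mean level of each marker list overlapped between the groups: the dopaminergic list ran from -5.50 to -4.13 in knockout and from -5.02 to -4.41 in wild-type arrays, and the fibroblast list from -4.03 to -3.39 and from -3.98 to -3.28. Their part in the results was not tested.

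The targeted gene checks the labels. At the brightest Vdac1 probe, base 1724, the level ran from 2.26 to 2.68 over KO 1 to KO 4, from 1.20 to 1.53 over KO 5 to KO 7 and from 3.07 to 3.61 over the wild type. Every knockout array was below every wild-type array, and KO 5 to KO 7 were the lowest. The 3 Vdac1 probes differed by -1.23, -1.22 and -1.15 (limma adjusted p = 0.0563, 0.0423 and 0.0899), and the transcript stayed well above background on all 12 arrays. The sources used here do not place the edit in relation to the probes.

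BNIP3 is an outer membrane receptor whose gene is a textbook target of hypoxia-inducible factor. At base 1537, a probe printed as 10 spots per array, the level in the knockout was 0.85, 1.18, 0.98, 1.34, 1.58, 1.60 and 1.19 in KO 1 to KO 7. The wild-type arrays, in the order WT 3, WT 5, WT 6, WT 7 and WT 8, read 0.20, -0.11, -0.12, 0.31 and -0.27. The lowest knockout array, KO 1, was above the highest wild-type array, WT 7. The means were 1.24 ± 0.28 (SD, n = 7) and 0.0050 ± 0.24 (SD, n = 5), a difference of 1.24 (SE 0.17, 95% interval 0.88 to 1.60), which is 2.36-fold higher in the knockout (limma adjusted p = 0.00710). The exact two-sided permutation p was 0.00126, the smallest that 792 splits of the arrays can give. Among the 17912 probes it had the 10th smallest p. The spots of this probe within an array spread by a median SD of 0.080, below the SD between arrays of either group.

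The other Bnip3 probe starts at base 623 and gave a difference of the same size. Its level was -0.49, -0.01, -0.27, 0.09, 0.65, 0.43 and 0.40 over KO 1 to KO 7, and -1.54, -1.23, -1.21, -0.65 and -1.30 over WT 3 and WT 5 to WT 8. WT 7 was again the highest wild-type array and KO 1 the lowest knockout array, with no overlap. Groups did not overlap in this direction at 1.74% of all probes. The difference was 1.30 (SE 0.21, 95% interval 0.84 to 1.76; limma adjusted p = 0.0193; exact permutation p = 0.00126). The file coordinates (build rn4, per the file headers, not checked against a genome here) place base 1537 at chr1:198683030-198683089 and base 623 across chr1:198683944-198686065, a span longer than the 60 bases of the probe. The sequence of this second probe is shown because it reads the Bnip3 rise at another place in the same transcript, in the same RNA samples, with no capitals.
Bnip3 probe at base 623: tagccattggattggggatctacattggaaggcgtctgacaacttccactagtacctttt

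**Figure D1:**
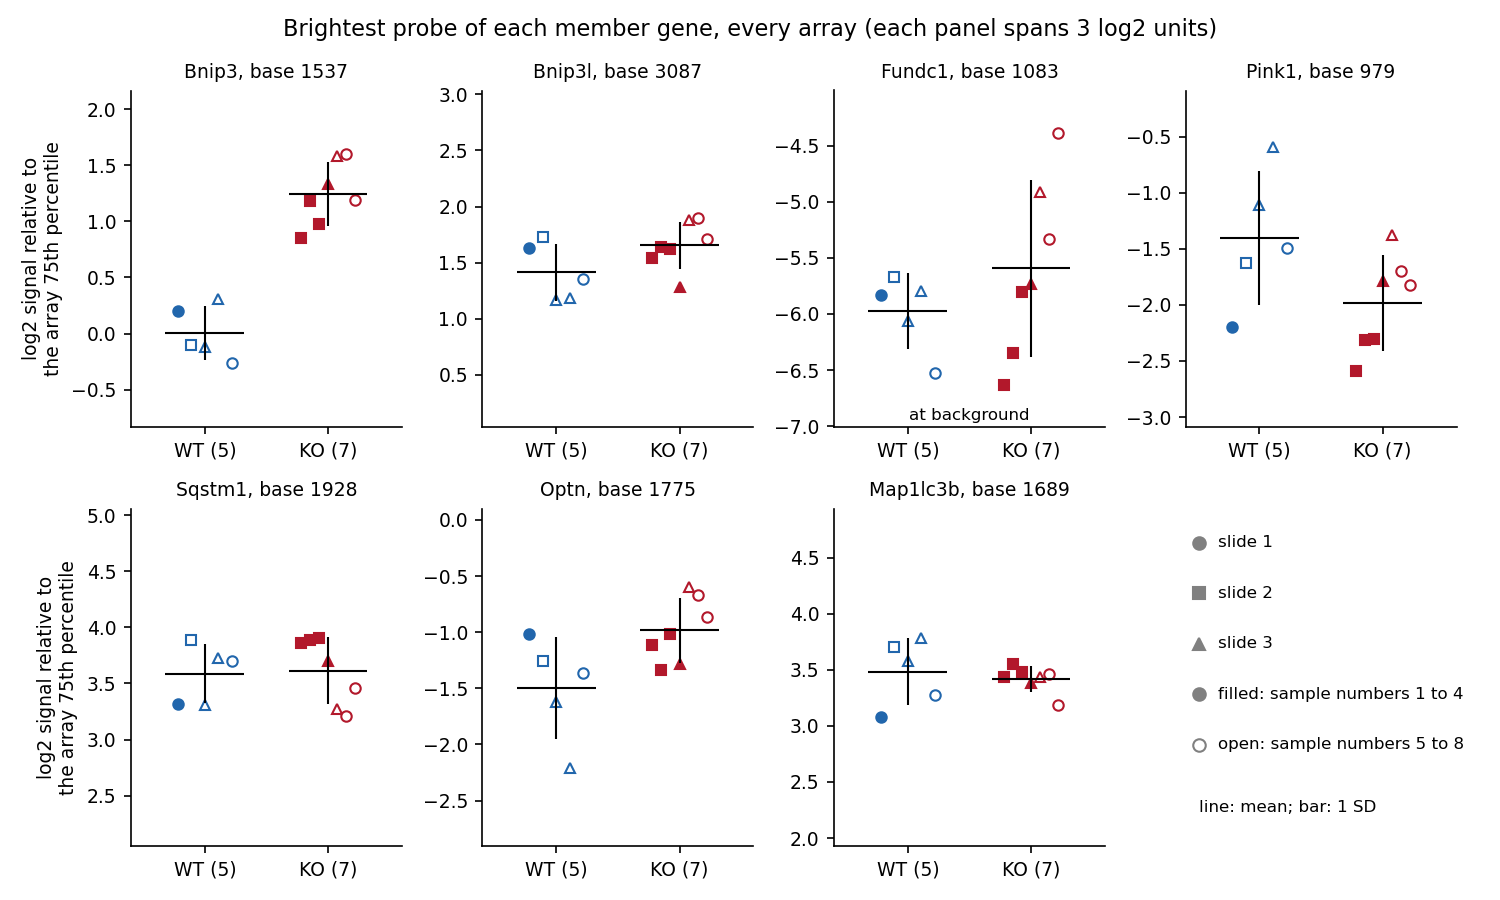
Level of the brightest probe of each member (log2 signal relative to the array's 75th percentile) on every array; blue is wild type (n = 5), red is knockout (n = 7), symbols give the slide and filled points the sample numbers 1 to 4, with the mean as a line and 1 SD as a bar. Bnip3 is the panel in which the groups do not overlap (0.85 to 1.60 against -0.27 to 0.31), and Fundc1 lies at background.

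The Bnip3 difference had the same sign within each slide. At base 1537 it was 1.43, 1.11 and 1.36 within slides 1, 2 and 3 and 1.32 with slide as a block (limma adjusted p = 0.00488). At base 623 the difference was 1.83, 0.98 and 1.30 within the slides and 1.41 with the block (adjusted p = 0.00823). Slides 1 and 3, with 2 arrays a group, gave no call for any probe. The slide 2 values set 3 knockout arrays numbered 1 to 3 against WT 5, so genotype and sample number cannot be told apart there, and the fit assumes that the lone array varies like the knockout arrays. A block for sample number gave 1.30 and 1.52 at the probes in that order (adjusted p = 0.00241 and 0.00104). Arrays numbered 5 to 8 by themselves gave 1.50 and 1.59 (adjusted p = 0.00757 and 0.00668). Those numbered 1 to 4 gave 0.88 and 1.37 against WT 3, their single wild-type array, from which no pass or fail is read. Of all probes, 2.62% were called with the slide block, 5.1% with the number block and 4.24% in numbers 5 to 8. Knockout arrays 5 to 7 were the higher ones at base 623 (0.40 to 0.65, against -0.49 to 0.09 in KO 1 to KO 4), while at base 1537 both sets overlapped (1.19 to 1.60 and 0.85 to 1.34). Base 1537 passed without any 1 of the 12 arrays (adjusted p 0.00317 to 0.0377), and base 623 lost its call without WT 5 (0.0644) or WT 8 (0.0636). With normexp background correction base 1537 still passed (1.08, adjusted p = 0.0108) and base 623 did not (0.96, adjusted p = 0.0822). Without the filter on dim probes neither passed (adjusted p = 0.169 and 0.192).

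**Figure D2:**
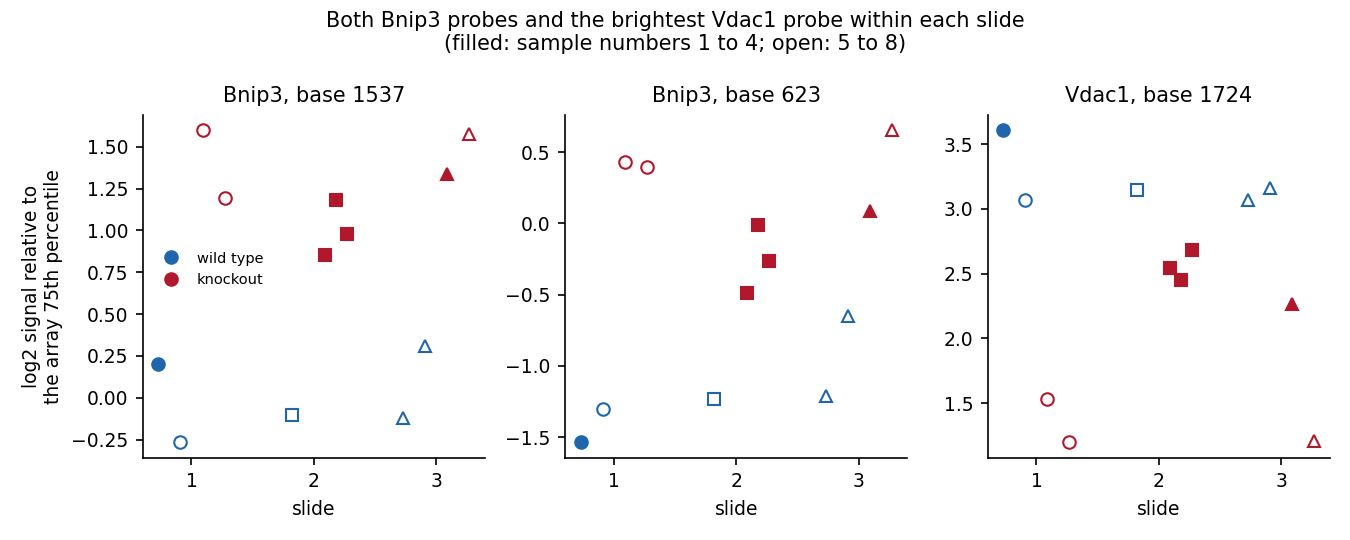
Level on every array of the 2 Bnip3 probes and of the brightest Vdac1 probe (log2 signal relative to the array's 75th percentile), by slide; blue is wild type, red is knockout, filled points have sample numbers 1 to 4. Within each slide the knockout points lie above the wild-type points for Bnip3 and below them for Vdac1.

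The sequence before the transcription start was compared between the members. RefSeq promoters (assembly GRCr8) were matched by symbol for 5 of the 7 members, Bnip3, Pink1, Sqstm1, Optn and Map1lc3b, and the 250 bases before the start were searched on both strands. The motifs were ACGTG and GCGTG (the core bound by hypoxia-inducible factor), CACGTG (an E-box, which contains ACGTG on both strands) and TGACNNNGC (the core of the antioxidant element bound by NRF2). Bnip3 and Pink1, the members with the largest differences up and down, are shown, with every ACGTG or GCGTG on either strand in capitals (read from the other strand these are CACGT and CACGC). The Bnip3 window is chr1:203154963-203155212 and the Pink1 window chr5:155825951-155826200, both on the minus strand.
Bnip3 promoter: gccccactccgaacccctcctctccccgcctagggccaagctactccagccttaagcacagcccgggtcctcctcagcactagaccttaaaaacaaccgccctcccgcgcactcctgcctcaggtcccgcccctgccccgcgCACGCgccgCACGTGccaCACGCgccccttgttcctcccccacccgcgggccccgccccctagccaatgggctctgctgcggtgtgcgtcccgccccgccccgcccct
Pink1 promoter: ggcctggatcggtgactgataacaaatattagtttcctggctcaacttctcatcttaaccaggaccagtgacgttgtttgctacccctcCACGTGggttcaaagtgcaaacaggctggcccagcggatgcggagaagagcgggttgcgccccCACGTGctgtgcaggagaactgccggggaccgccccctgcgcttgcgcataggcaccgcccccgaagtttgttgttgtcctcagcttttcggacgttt

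In Bnip3 the matches sit together, with the first starting 108 and the last 90 bases before the start: GCGTG on the opposite strand, then CACGTG, then GCGTG on the opposite strand again. Pink1 holds CACGTG at 2 places, the first starting 161 and the second 98 bases before the start. Optn has 3 GCGTG and Map1lc3b 1, and Sqstm1 has neither core in this window. Of 33469 promoters in the table, 36.7% hold ACGTG or GCGTG in the same 250 bases and 5.6% hold CACGTG. TGACNNNGC was in none of the 5 windows and in 10.1% of all promoters. The Bnip3 window is 72.4% G or C, against a median of 51.2%. These are letter matches and not measured binding sites.

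BNIP3L, the paralog of BNIP3, clears mitochondria from maturing red cells and is also listed among hypoxia-inducible genes. Its brightest probe, base 3087, read 1.29, 1.64 and 1.90 at the lowest, median and highest knockout array. In the wild type it read 1.63, 1.73, 1.17, 1.19 and 1.35 in WT 3 and WT 5 to WT 8. KO 5 and KO 6 lay above every wild-type array and WT 6 and WT 7 below every knockout array, with the rest overlapping. The difference was 0.24 (SE 0.15, 95% interval -0.08 to 0.56, limma adjusted p = 0.459, exact permutation p = 0.110). The knockout arrays split by sample number, at 1.29 to 1.64 in KO 1 to KO 4 and 1.71 to 1.90 in KO 5 to KO 7. Within numbers 5 to 8 the difference was 0.47 and was not called. In numbers 1 to 4 the single wild-type array, WT 3, lay within the range of KO 1 to KO 4. At base 2570 Bnip3l differed by 0.078 (SE 0.19, adjusted p = 0.887). By the file coordinates, in rn4, the brightest probes of the other members lie at chr15:46516681-46516740 (Bnip3l), chrX:16688597-16688656 (Fundc1), chr5:157091288-157091347 (Pink1), chr10:35751303-35751362 (Sqstm1) and chr17:84346495-84346554 (Optn), and that of Map1lc3b is unmapped. The interval at base 3087 does not reach the size measured for Bnip3. To test the difference between both genes, the level of Bnip3 minus that of Bnip3l was taken on each array. This was -0.41 ± 0.25 (SD, n = 7) for knockout arrays and -1.41 ± 0.36 (SD, n = 5) for wild-type arrays, a shift of 1.00 with no overlap.

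The same test, chosen after the members' values were seen, was run for Bnip3 against the brightest probe of each of the 5 other members tested. The shift was 1.00 against Bnip3l, 1.82 against Pink1, 1.21 against Sqstm1, 0.73 against Optn and 1.31 against Map1lc3b. The exact two-sided permutation p was 0.00126 for Bnip3l, Pink1 and Map1lc3b, 0.00253 for Sqstm1 and 0.0177 for Optn, which adjusted over the 5 pairs became 0.00210, 0.00316 and 0.0177. The groups overlapped only in the comparison with Optn. Bnip3 was picked for its difference in these same arrays, and the adjustment over the 5 pairs does not cover that choice. These p-values are therefore a description and not separate support.

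FUNDC1 is a receptor of hypoxia-induced mitophagy that is controlled largely by phosphorylation. Its single probe, base 1083, was well above background on 1 of 7 knockout arrays and 0 of 5 wild-type arrays and so was left out of the fit. The values ran from -6.63 to -4.38 in the knockout, with a median of -5.73, and were -5.83, -5.67, -6.06, -5.79 and -6.53 in WT 3 and WT 5 to WT 8. They give only a bound, and no fold is given. The Fundc1 transcript was thus not measurable with this probe, which does not show that it was absent.

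PINK1 is the kinase that starts the Parkin route. Its brightest probe, base 979, read -2.59, -1.82 and -1.38 at the lowest, median and highest knockout array, and -2.20, -1.63, -1.11, -0.59 and -1.49 in WT 3 and WT 5 to WT 8. Of the wild-type arrays WT 3 alone lay below the knockout median, and 3 of the 5 fell within the knockout's range. The difference was -0.58 (SE 0.27, 95% interval -1.17 to 0.01; limma adjusted p = 0.322; exact permutation p = 0.0808). At base 1747, which is printed as 10 spots, Pink1 differed by -0.47 (SE 0.19, adjusted p = 0.249; exact permutation p = 0.0379). Its knockout values ran from -2.41 to -1.75, and those of WT 3 and WT 5 to WT 8 were -1.99, -1.07, -1.82, -1.14 and -1.40, so WT 3 and WT 6 fell within the knockout's range. Within slides 1, 2 and 3 the Pink1 difference was 0.09, -0.77 and -0.73 at base 979 and -0.12, -0.76 and -0.79 at base 1747. A block for sample number gave -0.31 and -0.38, and arrays numbered 1 to 4 by themselves, with WT 3 as the single wild type, gave -0.05 and 0.0087. At base 1747 Pink1 passed within slide 2 (adjusted p = 0.0455), where WT 5 is the single wild-type array and sample number changes along with genotype. Both Pink1 probes passed with array weights (-0.77 and -0.52, adjusted p = 0.00722 and 0.0146), a setting under which limma called 5823 probes. The third Pink1 probe, base 390, was well above background on no array.

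Sqstm1 encodes p62, an adaptor that links ubiquitin to LC3 and is itself degraded by autophagy. Its brightest probe, base 1928, read 3.86, 3.89, 3.90 and 3.70 over KO 1 to KO 4, 3.27, 3.21 and 3.46 over KO 5 to KO 7, and 3.32, 3.89, 3.31, 3.72 and 3.70 in WT 3 and WT 5 to WT 8. The knockout arrays fell into 2 ranges by sample number, and the wild-type arrays lay across both. The difference between genotypes was 0.026 (SE 0.17, 95% interval -0.35 to 0.40, limma adjusted p = 0.961). It changed sign between scalings, at -0.11 under quantile normalization, and between the sets of sample numbers. Within numbers 5 to 8 it was -0.34, and within numbers 1 to 4, against WT 3 alone, it was 0.52. The probe at base 727, designed to another transcript record of the gene, read 2.52 to 2.92 in KO 1 to KO 4 and 2.82 in WT 3, but 1.28 to 1.68 in KO 5 to KO 7 and 1.76 to 2.33 in WT 5 to WT 8. Its level thus followed the sample numbers, with no overlap between numbers 1 to 4 and 5 to 8. Within numbers 5 to 8 every knockout array lay below every wild-type array. Over all arrays the genotype difference of this probe was -0.029 (SE 0.31, adjusted p = 0.977). Within slide 2, where genotype and sample number change together, with WT 5 as the single wild-type array, the base 727 difference was 0.88 (adjusted p = 0.0416), while a block for sample number gave -0.43 (adjusted p = 0.138). The probe at base 1072 differed by 0.15 (adjusted p = 0.762). Its difference was -0.28 within numbers 5 to 8 and 1.13 within numbers 1 to 4, against WT 3 alone.

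Optineurin is an adaptor that recruits LC3 to ubiquitin-marked mitochondria. The brightest Optn probe, base 1775, read -1.12, -1.34, -1.01 and -1.28 over KO 1 to KO 4, -0.60, -0.67 and -0.86 over KO 5 to KO 7, and -1.02, -1.26, -1.63, -2.21 and -1.37 in WT 3 and WT 5 to WT 8. KO 5 to KO 7 were above every wild-type array, KO 3 lay beside the highest of them, WT 3, and KO 1, KO 2 and KO 4 were among them. The difference was 0.51 (SE 0.21, 95% interval 0.06 to 0.96), with an unadjusted exact permutation p = 0.0316 and a limma adjusted p = 0.253. It was 0.90 in numbers 5 to 8 alone (adjusted p = 0.0788) and -0.17 in numbers 1 to 4, where WT 3 is the single wild-type array. The other Optn probes gave smaller differences, which were not tested against that of base 1775: base 3383 gave -0.0069 (SE 0.17) and base 1229 gave 0.18 (SE 0.21), with adjusted p = 0.990 and 0.728.

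Map1lc3b encodes LC3B, the ubiquitin-like protein on autophagosome membranes that receptors and adaptors bind. The gene has 5 probes, all well above background on all 12 arrays. At base 1689, the brightest, the knockout read 3.18, 3.44 and 3.55 at its lowest, median and highest array, and WT 3 and WT 5 to WT 8 read 3.08, 3.70, 3.58, 3.78 and 3.27. All knockout values lay within the wild-type range. The difference was -0.066 (SE 0.14, 95% interval -0.37 to 0.24; limma adjusted p = 0.869). The probe at base 609, printed as 10 spots, had the narrowest spread and differed by 0.0058 (95% interval -0.24 to 0.25; adjusted p = 0.988). The probes at bases 1672, 252 and 389 differed by -0.027, 0.076 and -0.26, and none passed.

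**Figure D3:**
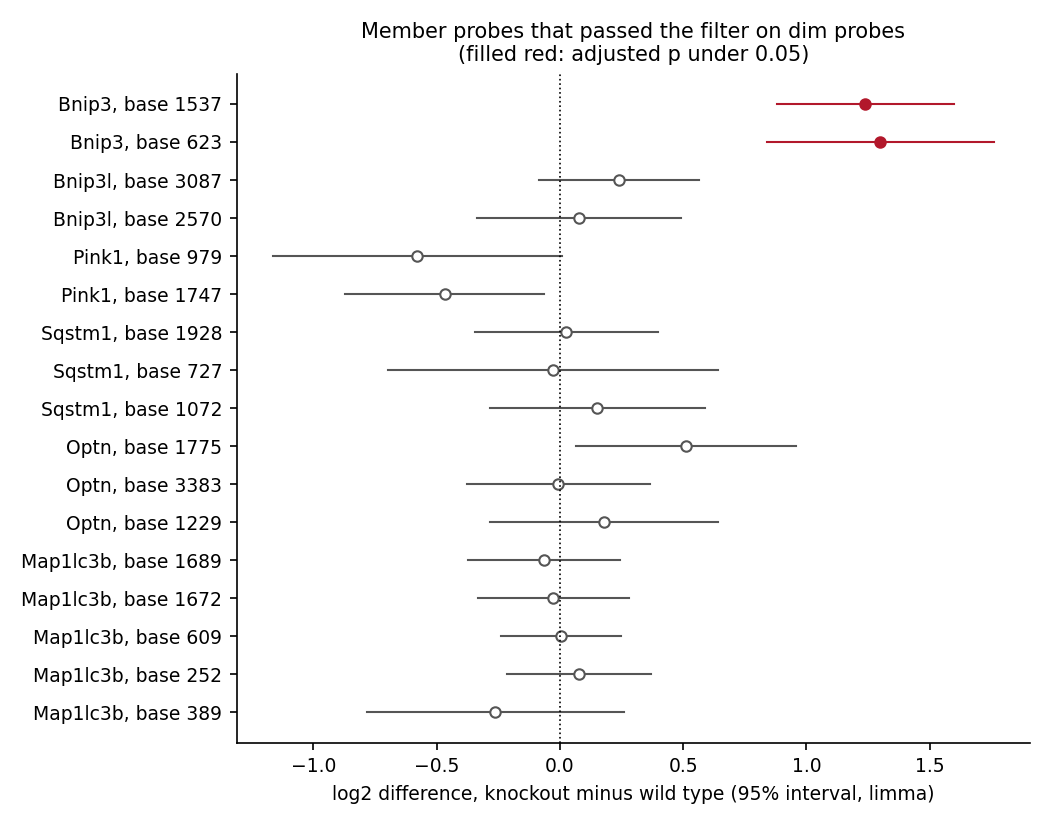
Log2 difference, knockout minus wild type, of the 17 member probes that passed the filter on dim probes (points) with limma's 95% interval (lines). Filled red points passed at adjusted p under 0.05: the 2 Bnip3 probes, at 1.24 and 1.30; all others have open points.

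The genes around the members were described by lists chosen with earlier results of these data known. In 9 lists, 92 genes were tested, of which 0 were called by limma, against 1.09% of 14770 genes called in either direction. An unadjusted p under 0.05 was reached by 8 with a positive and 5 with a negative difference, as it was by 9.19% and 6.63% of all probes. Their median difference was 0.050. The 6 lists of mitophagy and autophagy held 65 genes, with 0 called by limma, a median of 0.047, and an unadjusted p under 0.05 for 4 positive and 2 negative differences.

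Among 5 other mitophagy receptors the median was 0.29 and limma called 0 (unadjusted p under 0.05: 2 positive, 1 negative). Bcl2l13, a BCL2-family receptor of the outer membrane, differed by 0.43 (SE 0.13, adjusted p = 0.129). It read from -0.11 to 0.27 in the knockout and from -0.65 to -0.21 in the wild type. It was the gene of these 65 whose groups did not overlap, while 2.67% of all probes did not overlap in either direction. Fkbp8, a receptor with a peptidyl-prolyl isomerase domain, differed by 0.38 (adjusted p = 0.276), with overlap.

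The list of the PINK1 and Parkin route had 13 genes tested, a median of -0.067 and 0 called (0 at unadjusted p under 0.05). Ubb, a polyubiquitin gene, differed by 0.19 (adjusted p = 0.471). Of 6 other adaptors 0 passed, with a median of 0.065. Wdfy3, a scaffold of selective autophagy, differed by 0.33 and Tollip, which binds ubiquitin, by -0.086 (adjusted p = 0.342 and 0.839). Among 13 ATG8 proteins and conjugation enzymes the median was 0.033 and 0 passed. Gabarapl1, an ATG8 protein bound by mitophagy receptors, differed by 0.45 (adjusted p = 0.330), and Atg10, the enzyme that joins ATG12 to ATG5, by -0.38 (adjusted p = 0.341).

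Of 15 genes of initiation and membrane supply 0 passed, with a median of 0.087. Atg2b, a lipid transfer protein, differed by -0.48 and Pik3c3, the lipid kinase VPS34, by 0.26 (adjusted p = 0.303 and 0.382). Of 13 genes of fusion with lysosomes 0 passed, with a median of 0.11. The small GTPase gene Rab7a differed by 0.30 and Vps18, a tethering subunit, by 0.65 (adjusted p = 0.266 and 0.271).

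Among 8 transcription regulators of the members 0 passed, with a median of 0.091. Keap1, the adaptor that sends NRF2 to degradation and binds p62, differed by 0.43 (adjusted p = 0.234), and Tfeb, the regulator of lysosomal genes, by 0.71 (SE 0.35, adjusted p = 0.341). Of 12 other targets of hypoxia-inducible factor limma called 0 (unadjusted p under 0.05: 3 positive, 1 negative), with a median of 0.13. Pdk1, which restrains pyruvate oxidation, differed by 0.79 (SE 0.25, adjusted p = 0.144). It read -1.44 to -0.68 in the knockout and -2.64 to -0.99 in the wild type. Ankrd37 differed by 0.68 (SE 0.22, adjusted p = 0.151). Pdk1 and Ankrd37 passed in numbers 5 to 8 alone, without WT 3 and with array weights, and Ankrd37 also with slide as a block. By sign, 7 of the 12 differences were positive and 5 negative. Vegfa, the 1 negative at unadjusted p under 0.05, differed by -0.47 (limma adjusted p = 0.186) and passed with array weights. This list holds no glycolytic enzyme, so the count of 0 does not cover those genes.

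Of 7 NRF2 targets 0 passed (2 lower at unadjusted p under 0.05), with a median of 0.037. Slc7a11, the cystine importer, had the largest difference of the 92 genes, -1.52 (SE 0.35, adjusted p = 0.0563). It read from -1.65 to -0.39 in the knockout and from -0.50 to 1.08 in the wild type, so the groups overlapped narrowly. Slc7a11 passed with slide, scan day or sample numbers as a block, with an intensity trend and without WT 3. Txnrd1, a thioredoxin reductase, differed by -0.52 (adjusted p = 0.201).

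**Figure D4:**
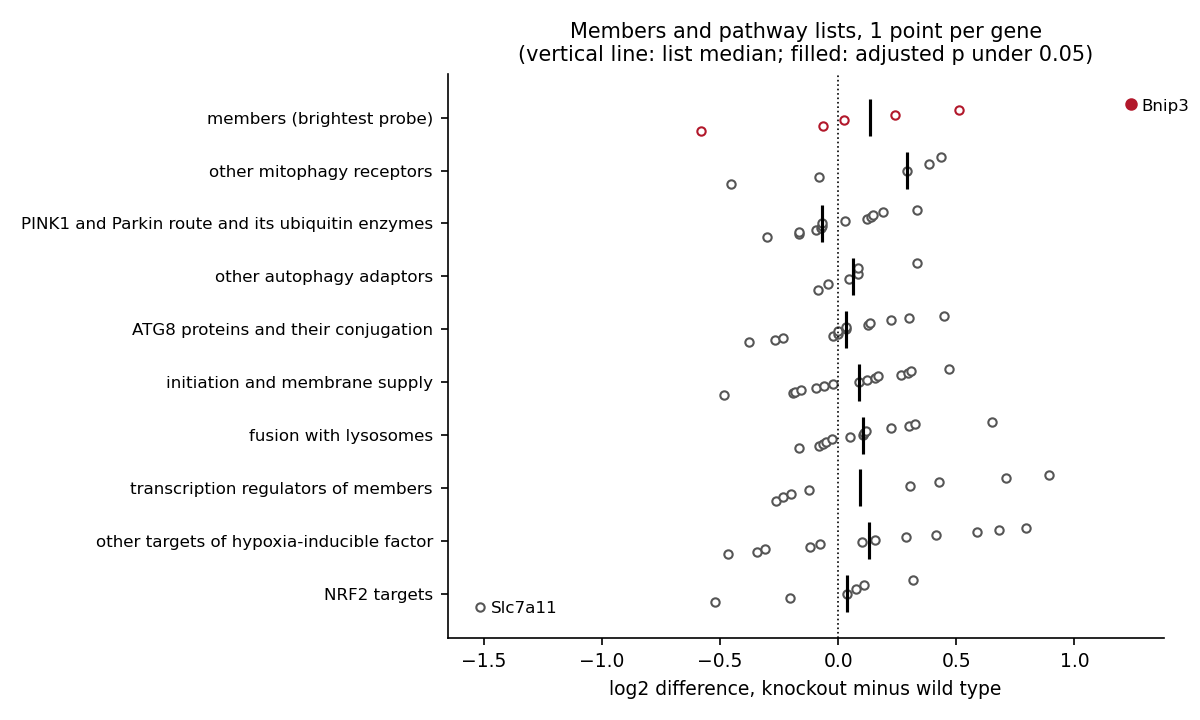
Log2 difference, knockout minus wild type, of each gene tested (1 point, brightest probe) for the members and 9 pathway lists, with the list median as a vertical line. Bnip3 at 1.24 is the filled point that passed; the list genes run from -1.52 (Slc7a11) to 0.89 and none passed.

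The genes whose level ran most like Bnip3 over the 12 arrays were found by the root mean square difference of log2 levels, after each gene's own mean was subtracted, among 10112 named genes. The closest were Tpi1 (0.24), the glycolytic enzyme triosephosphate isomerase, Tpi1l1 (0.25), named as like it, Tst (0.28), a mitochondrial sulfurtransferase, the histone gene Hist2h2be (0.32) and Slc16a3 (0.32), a lactate exporter. Pearson correlations with Bnip3 over the 12 arrays were 0.94, 0.93, 0.92, 0.93 and 0.88, a description that holds the genotype difference itself. Whether the Tpi1 and Tpi1l1 probes read the same transcript is uncertain. The genes closest to Bnip3l were Get1 (0.099), Selenof (0.13), Ssbp1 (0.13), Fam149b1 (0.13) and Alg6 (0.13). Their knockout differences ran from 0.21 to 0.35 and none passed.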

How the data were processed

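Per the labels' protocols, Trizol RNA was labelled with Cy3. Images were read with Agilent Feature Extraction (10.7 per the submitters' processing notes, 10.1.1.1 per the file headers). The deposited scanner files give the linear intensity of each spot and, as other columns, flags for uneven and outlier spots and for spots well above background. The authors' deposited table holds log2 values whose columns all have the median 3.06. Its Spearman correlation with the scanner signal of the same array was 0.999, which fits log2 signal not centred by gene.

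Spots flagged uneven or outlying were left out, spots of a probe averaged as log2, and the 75th percentile of each array subtracted. Signal percentiles ran from 120.1 to 691.8, 42.3% to 53.8% of spots were well above background, and 0 were saturated. Precision is limited by the number of arrays. Probes well above background on at least 5 of 12 arrays (17912) were fitted with limma 3.58.1 in R 4.3.3 (lmFit, eBayes, no covariate, two-sided, Benjamini-Hochberg), and the script was tested on simulated data. A gene is called by its brightest probe. Alternatives were other background corrections, scalings, filters, blocks, variance models and array subsets. Slc2a1, Kdm3a and Vegfa were named after their values were seen. The other named genes are Vdac1, the members, and up to 4 called genes per list or else the 2 with the smallest p. The rule also names the 5 nearest to Bnip3 and to Bnip3l. Of the genes this rule names, 1 is not reported here. Members and lists were chosen with earlier results of these data known.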

Additional observations from a re-analysis of the deposited data

Results flagged for a closer look

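In 98 groups of arrays (49 probes in each genotype), 5 held an array far from the others of its genotype, where chance flags about 1 in 20. Vdac1 at base 1724 read 3.61 in WT 3, with the other wild-type arrays between 3.07 and 3.16. Wdfy3 read -2.75 in WT 6, against -2.11 to -1.87. In the knockout, Keap1 read -2.89 in KO 6, against -2.48 to -2.16. Pik3c3 read -1.58 in KO 5, against -1.23 to -1.01, and Tollip 0.054 in KO 5, against 0.52 to 0.78. The flags included no probe of a member gene.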

How the results depend on the processing

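Over the alternatives run, Bnip3 kept its sign on both probes, at 0.88 to 1.50 for base 1537 (call kept in 28 of 33) and 0.96 to 1.83 for base 623 (23 of 32). The cause of the changes below was not tested. Slide 2 and numbers 1 to 4 each hold 1 wild-type array, assumed to vary like the knockout arrays, so calls there say nothing of stability.

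Limma called 31 probes with normexp, 130 with quantile normalization, 61 with the median, 128 in the deposited table, 357 with the filter on all arrays, 469 with slide and 383 with scan day as a block, 914 with a sample number block, 760 in numbers 5 to 8, 53 in numbers 1 to 4, 2176 within slide 2, 5823 with array weights, 357 with an intensity trend and 101 with an RNA quality index as a covariate, chosen after seeing the data. It called 0 without the filter (2434 at unadjusted p under 0.05) and within slide 1 (2142) and slide 3 (965). Leaving out 1 array gave 18 (WT 5) to 776 (WT 3), and without each array but KO 5 the count moved over 1.5 times.

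Of member genes, 0 were called without the filter (2 at unadjusted p under 0.05), in slides 1 (1) and 3 (1) and for numbers 1 to 4 (2), and 2 with array weights, which added Pink1. Of member probes, 0 were called in those first 4 settings (3, 4, 2 and 4 at unadjusted p under 0.05), 1 with normexp, 1 with 1 probe per gene, 3 in slide 2 (Bnip3 base 1537 and Sqstm1 base 727 higher, Pink1 base 1747 lower), 4 with array weights and 1 to 2 without 1 array. Sqstm1 base 727 turned to 0.88 within slide 2. Of 549 alternative values of member probes, 81 crossed 0 without a call on either side.

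Of list genes, limma called 1 (Slc7a11) with the filter on all arrays, scan day, an intensity trend or the RNA index, 2 with slide as a block (with Ankrd37), 3 with a sample number block (with Slc2a1 and Kdm3a), 5 in numbers 5 to 8, 11 within slide 2, 27 with array weights, and 0 to 5 without 1 array (5 without WT 3).

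The sample numbers do not pair the samples: deviations of arrays sharing a number correlated by 0.45, -0.11, 0.067 and 0.051, and KO 3 alone was closest to its own number. With the replicate block limma called 0 probes (1851 at unadjusted p under 0.05), 0 member genes (2) and 0 member probes (3). That fit compares the genotypes only through the shared numbers, and in it Bnip3 differed by 1.26 and 1.46. Probes at background give only bounds.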
